A study of Mus musculus with 3 samples.

Results

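Glutamate synapse genes were taken as a set of 52 mouse genes that encode glutamate receptor subunits, their auxiliary and scaffold proteins, glutamate transporters and cerebellins, out of 21757 protein-coding genes in GENCODE M39. The genes were found by symbol, and all 52 were matched. Their 5-hydroxymethylcytosine (5hmC) regions were those merged immunoprecipitation peaks whose midpoint lay in the gene body or in the 1 kb upstream of the start. By this rule the 52 genes held 95 of 13339 merged regions, and 10729 of the 13339 lay in any protein-coding gene.

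The study sequenced hydroxymethylated DNA immunoprecipitation (hMeDIP) products directly on a nanopore, without amplification, and asked whether the base-caller responds to DNA enriched for 5hmC. An hMeDIP peak is a place where antibody-bound fragments pile up over an untreated input library of the same DNA, and a nanopore call names the state of a CpG cytosine in a single read as 5hmC, 5-methylcytosine (5mC) or unmodified C. All 3 libraries were hMeDIP replicates of female C57Bl6Cr cerebellum at an age of 8 weeks, with no other genotype, treatment or time point. Whole serum against 5hmC precipitated replicate 1, while an IgG-purified antibody was used for the other replicates. The library names point to 1 animal, so that the spread is that of sonication, precipitation and sequencing and not between animals, and antibody form and replicate 1 cannot be told apart. Whole cerebellum mixes granule, Purkinje and glial cells, so that fewer cells carrying a mark and a weaker mark in every cell cannot be told apart.

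Replicates 1, 2 and 3 gave 496, 8544 and 5166 peaks on chromosomes 1 to 19, X and Y. Sites with a base call within the merged regions numbered 29027, 64326 and 47075, with 69822, 104119 and 75591 calls. The libraries were shallow: at member CpGs the deepest site had 4, 3 and 6 calls in replicates 1, 2 and 3, and 78.0%, 74.7% and 52.8% of the member sites with any call had a single one.

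Glutamate carries most fast excitation in the brain. It is packed into vesicles by vesicular transporters and acts on ion channel receptors of the AMPA, NMDA and kainate families and on slower metabotropic receptors coupled to G proteins. Scaffolds of the Dlg, Dlgap, Shank, Homer and Grip families tie these receptors into the postsynaptic density, transporters of neurons and glia clear the transmitter, and cerebellins released from granule cells bridge to delta receptors on Purkinje cells. 5hmC, made from 5mC by TET enzymes, is abundant in the bodies of genes of mature neurons, and cerebellar neurons are a well-known site of it.

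At least 1 merged region was found in 28 of the 52 genes (53.8%), where 20% of all protein-coding genes had one. The number of members was 4, 27 and 14 in replicates 1, 2 and 3, or 7.69%, 51.9% and 26.9% of the 52, beside 1.75%, 15.2% and 11.1% of all protein-coding genes. Of the 95 regions, 85 rested on a single replicate, 10 had a peak in at least 2 replicates and 1 had a peak in all 3. Those 10 regions lay in 7 members (13.5%), beside 2.54% of all protein-coding genes with such a region. The shares of genes in this paragraph were not matched for length, and the median length was 106.3 kb in the members and 19.2 kb in all protein-coding genes. As a share of regions, 10.5% of the member regions and 6.06% of the regions of other protein-coding genes had a peak in at least 2 replicates.

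The 10 shared regions lay in Shank3, Grm4, Dlgap4, Dlgap3, Dlg2, Dlgap1 and Grin2c. 300 bases at the centre of 2 of them are shown, because one had a peak in all 3 replicates and the other had the most calls of the member regions in coding exons. They are GRCm39, plus strand, 5′ to 3′, in lower case with every CpG in capitals. Each is named by its gene, the exon or intron at the midpoint of its region, and its window. The Grm4 window starts in intron 2 and runs into exon 2. Exons and introns of regions are given by midpoint throughout, and a region can reach beyond them.

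Shank3 intron 12, chr15:89412897-89413196: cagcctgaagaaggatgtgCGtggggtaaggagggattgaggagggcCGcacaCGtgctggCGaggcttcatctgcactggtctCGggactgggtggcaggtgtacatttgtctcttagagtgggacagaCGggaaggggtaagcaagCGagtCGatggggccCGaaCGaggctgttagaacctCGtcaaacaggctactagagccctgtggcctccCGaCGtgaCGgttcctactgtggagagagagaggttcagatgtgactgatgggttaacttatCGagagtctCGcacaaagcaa
Grm4 coding exon 2, chr17:27721550-27721849: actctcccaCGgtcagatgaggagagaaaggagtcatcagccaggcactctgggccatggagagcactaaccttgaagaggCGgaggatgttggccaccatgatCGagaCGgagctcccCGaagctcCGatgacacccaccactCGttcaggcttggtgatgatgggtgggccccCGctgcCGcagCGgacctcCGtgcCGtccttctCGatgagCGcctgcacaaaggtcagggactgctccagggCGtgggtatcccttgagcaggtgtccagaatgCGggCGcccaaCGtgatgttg

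Shank3, a large scaffold at the base of the postsynaptic density, held the single region with a peak in all 3 replicates. It spans chr15:89412588-89413505 in intron 12, 29.2 kb from the gene start, with 31 CpGs. Fold enrichment over the input was 3.74, 4.75 and 4.55 in replicates 1, 2 and 3. The CpGs of the printed Shank3 window are scattered over its whole length, 16 in all. Calls in the whole region were 12 5hmC, 8 5mC and 5 unmodified in replicate 1, then 11, 12 and 13 in replicate 2. Replicate 3 had a peak there but 6 calls, all unmodified. 5hmC was thus called in replicates 1 and 2 and not in replicate 3, where 0 of 6 calls allow up to about 3 of 6 by counting error alone. A second shared Shank3 region, chr15:89430516-89432436, had the most calls of any member region, 225 over 76 CpGs. Its midpoint lay in intron 20 and its end in the next exon. The region had peaks of 4.79-fold in replicate 2 and 5.81-fold in replicate 3. The 5hmC calls were 23 of 65, 7 of 18 and 42 of 142 in replicates 1, 2 and 3, so that 5hmC was called in each library, also in replicate 1, which had no peak there.

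Grm4 encodes a presynaptic metabotropic receptor that damps transmitter release from parallel fibres. Its region at chr17:27721127-27722272, with its midpoint in coding exon 2, had peaks in replicate 1 (4.23-fold) and replicate 3 (4.81-fold). The gene runs on the minus strand, so that the printed Grm4 window reads against transcription. Exon 2 ends 18.8 kb from the gene start, and part of the region and the first bases of the window lie beyond it, in intron 2. The window holds 18 CpGs, all of which had a call in at least 1 replicate. Over the whole region 5hmC was called in 11 of 34, 11 of 40 and 10 of 84 calls in replicates 1, 2 and 3. Unmodified C made up 20 of 34, 11 of 40 and 68 of 84. The replicate without a peak, replicate 2, thus had the fewest unmodified calls. The other pair of shared Grm4 regions lay in intron 3, 52.1 kb and 63.8 kb from the start, with folds of 3.70 and 3.83 and of 3.69 and 2.82 in replicates 2 and 3.

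Dlgap3 and Dlgap4 belong to the family that links Dlg proteins to Shank proteins. The shared Dlgap3 region fell in coding exon 3. It had 40 calls in replicate 2, of which 14 were 5hmC, and 40 in replicate 3, of which 7 were 5hmC. Unmodified calls were 18 of 40 and 31 of 40, and replicate 1 had no call. The shared Dlgap4 region, at chr2:156604299-156605569 in the last exon, lay in untranslated sequence and is not printed. Its 5hmC calls were 4 of 16, 10 of 17 and 8 of 48 in replicates 1, 2 and 3.

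Dlg2, another member of the family of the postsynaptic scaffold PSD-95, had its shared region in intron 1. Its 2 peaks were 5.69-fold and 6.48-fold in replicates 2 and 3, the latter being the highest member value of replicate 3. Of its 78 calls, 75 lay in a simple tandem repeat, whose part in these folds and calls was not tested. 5hmC was called in 8 of 32 and 5 of 46 calls of the region in replicates 2 and 3, and replicate 1 had none. The Dlgap1 region shared by replicates 2 and 3, chr17:70833937-70834990 in intron 5, had 5hmC in 12 of 20, 0 of 15 and 4 of 10 calls. The 0 allows up to about 3 of 15 by counting error alone, and the libraries were thus unlike each other at this place.

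Grin2c encodes the NMDA receptor subunit typical of mature cerebellar granule cells. Its region at chr11:115151308-115151770 in intron 4 had the highest fold enrichment of any member peak, 6.65 in replicate 2, and 2.89 in replicate 3. In those 2 libraries 5hmC was called in 6 of 9 and 8 of 15 calls, whereas the 6 calls of replicate 1 were all unmodified. Outside the shared regions, the 5 member regions with the highest fold added Shank3 intron 21 (5.81-fold, replicate 3, 3 of 13 calls 5hmC) and Grik2 intron 2 (5.70-fold, replicate 2, 3 of 7 calls 5hmC).

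The regions were gathered in few genes. The 7 members with the most regions, Dlgap1 with 15, Grm4 with 12, Shank3 and Dlgap3 with 8 each, Dlgap4 with 7, Grin2a with 6 and Grin2c with 5, held 61 of the 95 regions (64.2%) on 12.2% of the members' combined length. Dlg1 with 4 and Grin2b with 3 followed, and Grik5 was the densest of the 8 members with 2. Several counts rested on a single library. Without replicate 2, Grin2a had 1 region and Dlgap3 had 3, and without replicate 3, Dlgap1 had 8 and Dlgap4 had 3. Dlg1 encodes a scaffold close to PSD-95, and Grin2b the NMDA subunit that prevails early in life.

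**Figure D1:**
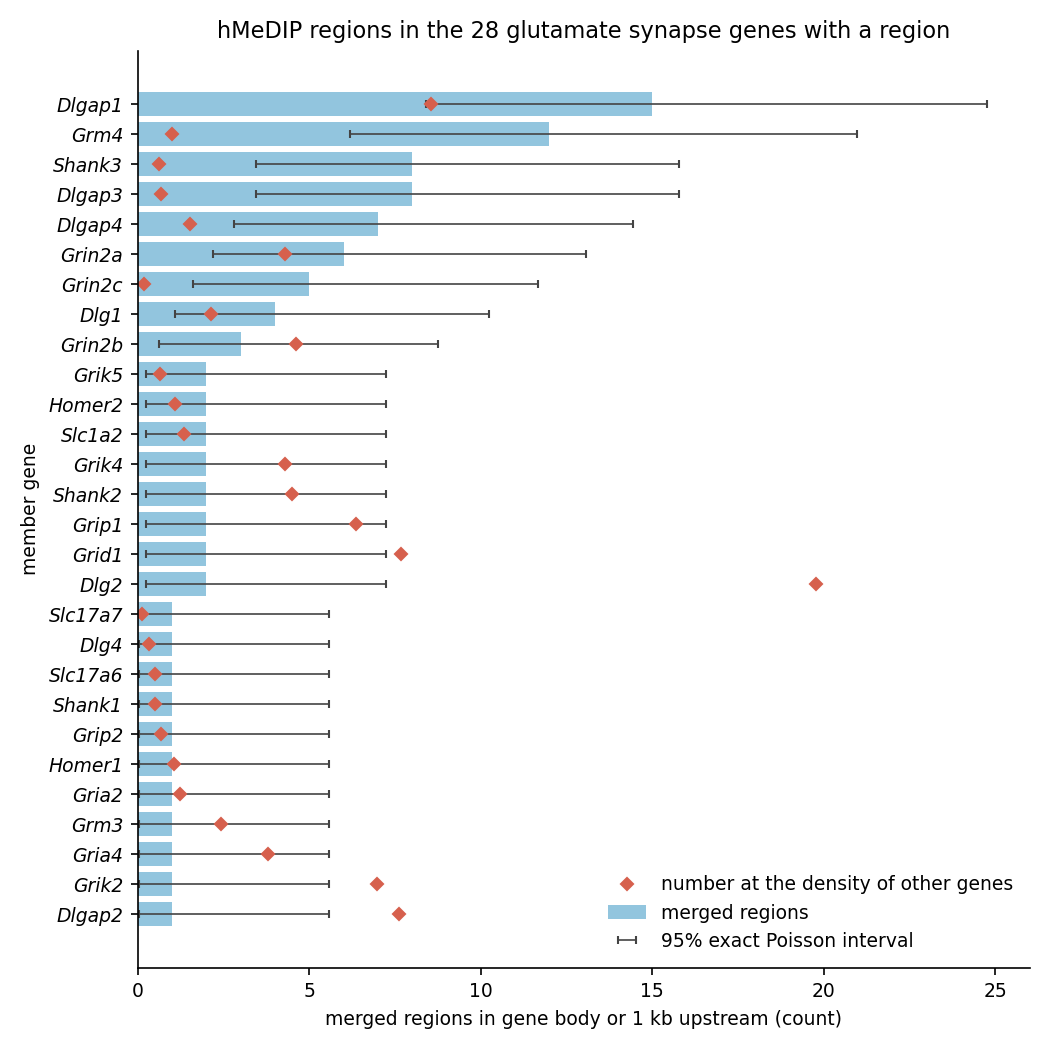
Horizontal bars give the count of merged regions in each of the 28 members with a region, lines its 95% exact Poisson interval (counting error only), and diamonds the count the gene would have at the pooled density of other protein-coding genes. Dlgap1 and Grm4 lead with 15 and 12 regions, and the bars of Grm4, Shank3, Dlgap3, Dlgap4 and Grin2c stand well beyond their diamonds while Dlg2, with 2, stands far short of its own.

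Per length, the order was another. Grin2c, a gene of 18.5 kb, led with 25.6 regions per 100 kb, then Shank3 with 13, Grm4 with 12, Dlgap3 with 11.6 and Dlgap4 with 4.61, among members with at least 2 regions. The pooled density over other protein-coding genes was 1.00 per 100 kb, so that a gene of the length of Grin2c would have 0.196 regions at that density, Shank3 0.618, Grm4 1.00 and Dlgap3 0.693. The exact Poisson intervals of the counts were 1.62 to 11.7 for Grin2c, 3.45 to 15.8 for Shank3 and for Dlgap3, and 6.20 to 21.0 for Grm4. Their lower bounds exceeded the number by length in these 4 genes and in Dlgap4. These 5 genes were named as the densest members, so the bounds describe counting error and are no test of a higher density. For Dlgap1 (8.40 to 24.7) the lower bound did not exceed 8.56 by length. It did exceed the 7.46 at the density per CpG of other genes and the 3.93 at the density of other genes of at least 500 kb. Without replicate 2, Grin2c had 2 regions (10.2 per 100 kb), Shank3 5 (8.11), Grm4 7 (7.00) and Dlgap3 3 (4.34), and their lower bounds still exceeded the number by length in the remaining libraries. That of Dlgap4 did not without replicate 3, where 3 regions were left, nor at a fold enrichment of at least 4, where 1 was left. With overlapping intervals in all 3 replicates together, Shank3, Grm4 and Dlgap3 were not set apart from each other by counting error. Having at least 2 regions and at least 2 times the pooled density was seen in 6 members (11.5%), Grin2c, Shank3, Grm4, Dlgap3, Dlgap4 and Grik5, and in 6.60% of all protein-coding genes.

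Long members differed widely. Of the 9 members of at least 500 kb, Dlgap1 had 15 regions where 8.56 would stand at the density of other genes, and the remaining 8 had 2, 1 or none. Dlg2, with 1973 kb the longest member, had 2 where 19.8 would stand, with an exact interval of 0.242 to 7.22. Other genes of at least 500 kb had 0.460 regions per 100 kb, less than other genes at large, and at that density Dlg2 would have 9.08 regions and Dlgap1 3.93.

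On the same scale of very long genes, Grid1 had 2 regions where 3.52 would stand, Grip1, which anchors AMPA receptors, 2 where 2.92 would, Dlgap2 1 where 3.49 would and Grik2 1 where 3.20 would. These 4 numbers lie within the exact intervals of the counts, which reach 7.22 for 2 regions and 5.57 for 1. At the density of all other genes the numbers would be 7.66, 6.36, 7.60 and 6.97 for Grid1, Grip1, Dlgap2 and Grik2, and at their density per CpG 5.69, 7.99, 7.66 and 2.84. By length all but that of Grip1, and by CpG those of Grip1 and Dlgap2, lie above the intervals. The 18 members of at least 100 kb and under 500 kb held 32 regions, in 12 of them, where 47.5 would stand by length. A region was found in 53.3% of all protein-coding genes of at least 100 kb. The share among those under 500 kb was not counted apart. Dlgap4, Grin2a and Dlg1 had 7, 6 and 4 where 1.52, 4.30 and 2.13 would stand, and Grin2b, Shank2, Grik4 and Gria4 had 3, 2, 2 and 1 where 4.62, 4.49, 4.29 and 3.81 would. Grm7, Grm8 and Grm5, metabotropic receptor genes of 921.7, 860.1 and 551.2 kb, had none where 4.24, 3.96 and 2.54 would stand at the density of very long genes. A count of 0 allows up to 3 regions, or 0.325, 0.348 and 0.543 regions per 100 kb in these 3 genes, by counting error alone, and the upper bound of the two-sided exact interval is 3.69. They are poor in CpG, with 4.57, 5.41 and 4.49 CpGs per kb beside 10.2 over other protein-coding genes, and the number of regions at the density per CpG of other genes would be 4.15, 4.58 and 2.44.

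Over all 52 genes the density was 0.691 regions per 100 kb, 95 regions in 13.8 Mb, and 1.00 in other protein-coding genes. By replicate, the members had 0.0363, 0.458 and 0.276 regions per 100 kb in replicates 1, 2 and 3, and the other genes 0.0380, 0.639 and 0.390. The member values rest on 5, 63 and 38 regions, so that replicate 1 adds little. The ratio was 0.955, 0.717 and 0.709 (mean 0.794 ± 0.140, SD, n = 3), below 1 in 3 of 3 replicates. An exact two-sided sign-flip permutation test on the log2 ratios (−0.35 ± 0.24, SD, n = 3) gave p = 0.25, the smallest value that 3 replicates allow. Counted per CpG in place of per base, the members had 0.853 and the others 0.983 regions per 1000 CpGs, and the ratio was 1.2, 0.903 and 0.893 in replicates 1, 2 and 3, with a mean log2 ratio of −0.01 ± 0.24 (SD, n = 3; exact sign-flip permutation p = 1). Per CpG the replicates thus differed in sign.

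The pooled value covered opposite values in short and long genes. Among genes of at least 100 kb the members had 0.431 and the others 0.942 regions per 100 kb, and the ratio was 0.514, 0.445 and 0.471 in replicates 1, 2 and 3. Among genes under 100 kb the members had 4.00 and the others 1.08, and the ratio was 6.22, 4.19 and 3.79. On the log2 scale the mean was −1.07 ± 0.10 (SD, n = 3) in the long genes and 2.21 ± 0.38 (SD, n = 3) in the short ones, each with the same sign in 3 of 3 replicates and an exact sign-flip permutation p of 0.25. In replicate 1 the long-gene ratio rested on 2 regions, both in Dlgap1. The short-gene ratio there rested on 1 region each in Grm4, Shank3 and Dlgap3. Grm4, at 99.0 kb, lay just under the dividing length with 12 of the 40 short-gene regions, and without it the short members had 3.11 regions per 100 kb. Shank3, Dlgap3 and Grin2c held 8, 8 and 5 of the others, and the median short member had 0 regions per 100 kb. Of the remaining short members, Grik5 had 2 regions, Slc17a7, Dlg4, Slc17a6, Shank1 and Grip2 had 1 each, and the rest had none. The higher short-gene density thus rested on Grm4, Shank3, Dlgap3 and Grin2c and is not a trait of short members at large. The pooled density without all of these genes was not counted. Dlgap1 held 15 of the 55 long-gene regions, and without it the long members had 0.336. As a count of genes, 10 of 25 short members (40.0%) and 18 of 27 long members (66.7%) had a region, beside 15.6% and 53.3% of all protein-coding genes of those classes. Within a class, neither these shares nor the densities are matched for length. The median was 34.4 kb in short members and 15.6 kb in all short genes, and 394.4 and 167.0 kb in the long ones. Genes of at least 500 kb made up 8.02 of the 12.8 Mb of the long members. At 500 kb or more it was 6 of 9 members and 66.7% of all protein-coding genes, the same share.

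**Figure D2:**
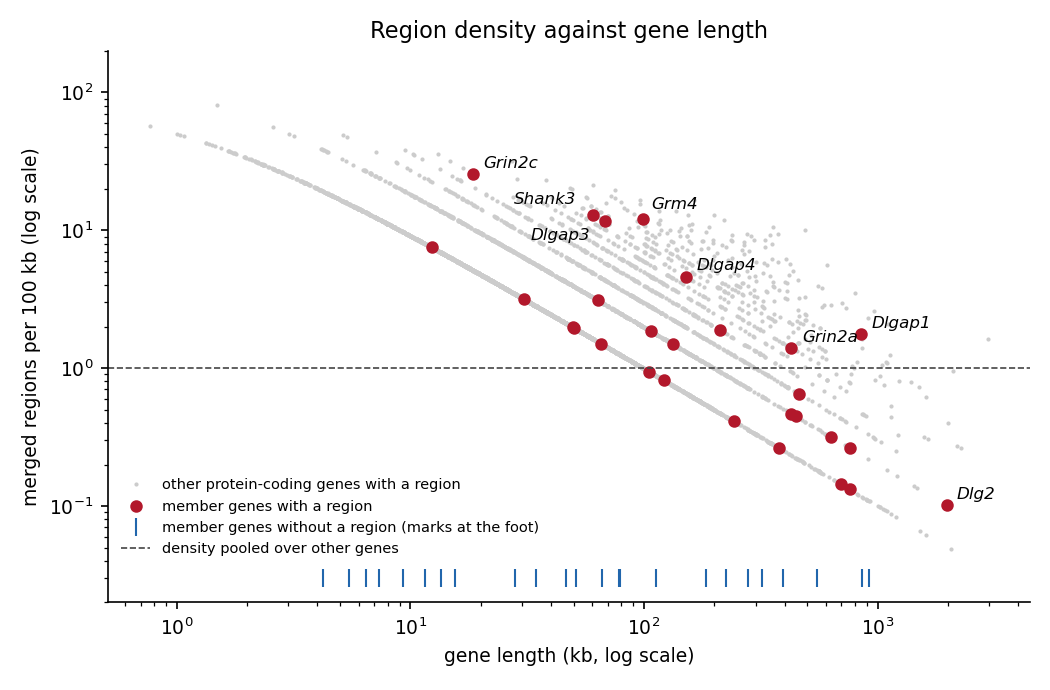
Each point is a protein-coding gene with a merged region, placed by gene length in kb and by regions per 100 kb, both on log scales, with the 28 members in red, the 24 members without a region as ticks at the foot, and the pooled density of other genes (1.00) dashed. Grin2c at 25.6 and Grm4 at 12 lie high in the cloud and Dlg2 at 0.101 lies low, and the slanting lines are genes with the same whole number of regions.

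Among the members with a region, length and density ran in opposite directions (Spearman rho −0.817 over 28 genes) and CpG content and density in the same one (rho 0.757 over 28 genes). Over all 52 members the same rank correlations were 0.0727 and 0.131, and that of CpG content over all 21757 protein-coding genes was 0.182. These describe genes that share the 3 libraries, and a gene with a single region has a density fixed by its length.

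A region was found in 2 of 4 AMPA, 3 of 7 NMDA, 3 of 5 kainate and 2 of 7 metabotropic receptor genes, beside 20% of all protein-coding genes and 53.3% of those of at least 100 kb, a length that all 4 AMPA genes exceed, and differences between families were not tested. In the AMPA family, which carries the fast component of transmission, Gria2 and Gria4 had 1 region each, and Gria1 and Gria3 had none, where 11 regions would stand over the 4 genes at the density of others. The Gria2 region lay at −0.885 kb, upstream of the start, and held a single call. In the NMDA family, whose channels admit calcium and need coincident depolarisation, 3 of 7 genes held 14 regions (11.8 by length). Grin2a had 6, Grin2c 5 and Grin2b 3, whereas the obligatory subunit gene Grin1 and Grin2d, Grin3a and Grin3b had none. Without Grin2c the family had 9 regions where 11.6 would stand by length. The Grin2c regions lay in introns 4, 5, 6, 11 and 13, and the Grin2a regions in coding exon 2 and in introns 2 and 3.

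Kainate receptor genes, whose subunits tune release and excitability, held 5 regions in 3 of 5 genes (18.1 by length), 2 each in Grik4 and Grik5 and 1 in Grik2, with none in Grik1 and Grik3. Grid1, the one delta receptor gene in the set, had 2 regions. Neto1 and Neto2, auxiliary proteins of kainate receptors, had none. Metabotropic receptors had 13 regions in 2 of 7 genes (27.2 by length), and 12 of the 13 were in Grm4. Grm3, which acts on neurons and glia, had the remaining 1, and Grm2, Grm5, Grm6, Grm7 and Grm8 had none.

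The scaffold genes, the largest family, had a region in 14 of 16 genes, beside 20% of all protein-coding genes and 53.3% of those of at least 100 kb, and held 55 of the 95 regions, close to the 56.1 by length. The Dlgap genes held 31 of these, 15 in Dlgap1, 8 in Dlgap3, 7 in Dlgap4 and 1 in Dlgap2. The Shank genes had 8 in Shank3, 2 in Shank2 and 1 in Shank1, and the Dlg genes 4 in Dlg1, 2 in Dlg2 and 1 in Dlg4, which encodes PSD-95 itself. Homer2, Grip1 with 2 each and Homer1 and Grip2 with 1 each followed. Homer3, a scaffold gene much used by Purkinje cells, and Dlg3 had none.

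The 6 transporter genes had 4 regions in all. Slc17a7 and Slc17a6, the main vesicular glutamate transporters of the brain, had 1 each, in intron 5 and intron 2, where 0.639 would stand by length for the pair. Slc1a2, the main glial uptake transporter of the forebrain, had 2 where 3.29 would stand over the 4 uptake transporter genes, and Slc1a3, the uptake transporter of Bergmann glia, Slc1a6, that of Purkinje cells, and the neuronal Slc1a1 had none. Cbln1, Cbln2, Cbln3 and Cbln4 had none, but the 4 cerebellin genes together span 0.0304 Mb, where 0.304 regions would stand by length, so that a lower density was not detectable there.

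Another pair of lists of the same pathway were counted in the same way. Of 16 genes for AMPA receptor auxiliary subunits and pentraxins, 8 had a region, with 18 regions (14.4 by length) or 1.25 per 100 kb, beside 1.00 in other genes. Cacng2, which encodes stargazin, the auxiliary subunit that brings AMPA receptors to cerebellar synapses, had 7 and Olfm1 had 4. Of 20 genes for postsynaptic signalling and glutamate metabolism, 12 had a region, with 80 regions (26.1 by length) or 3.08 per 100 kb. Of all protein-coding genes, 20% had one. Tiam1, a Rac exchange factor at NMDA receptors, held 38 of these, and without it the list had 42 regions or 1.87 per 100 kb. Camk2b, the beta subunit of the calcium/calmodulin-dependent kinase, had 8, and Camk2d and Nos1 had 6 each.

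Within genes the regions lay along the whole length. Of the 93 regions inside a gene body, 25, 22, 25 and 21 fell in successive stretches of equal length from start to end, and the median position was 48.2% of gene length for members and 47.6% for other genes. An intron of the canonical transcript held 80 of the 95 regions (84.2%, 95% exact Clopper-Pearson interval 75.3 to 90.9%), and 78.1% of the regions of other genes (77.4 to 78.9%). First introns held 19 (20%, 12.5 to 29.5%) and later introns 61 (64.2%, 53.7 to 73.8%), where other genes had 31.5% and 46.7%. Neither interval of the members takes in the value of the other genes. The intervals treat regions as independent, but many share a gene, with 61 of the 95 in 7 members. The lengths of first and later introns in these genes were not compared, so the difference is descriptive.

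Coding exons held 7 regions (7.37%, 3.01 to 14.6%, beside 8.82%), 3 of them in Grm4, 2 in Dlgap3 and 1 each in Grin2a and Shank2. The 3′ untranslated exons held 4 (4.21%, beside 2.84%), in Dlgap4, Dlg1, Slc1a2 and Shank3. The 1 kb upstream held 2, in Gria2 and Shank1, and 2 in Grip1 lay outside the canonical transcript, and no region fell in a 5′ untranslated exon, where other genes had 0.403%. A median member region was 304 bp wide with 7 CpGs and 49.3% GC, and a median region of other genes had the same 3 values. CpG density was 1.64 per 100 bp in the median member region and 1.81 in other genes.

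Fold enrichment of the member peaks over the input had the same median as in other genes in replicates 2 and 3. The median was 4.23, 3.83 and 3.87 over 5, 64 and 38 member peaks in replicates 1, 2 and 3, and 4.72, 3.83 and 3.87 over the peaks of other genes. The mean difference was −0.163 ± 0.283 (SD, n = 3; exact two-sided sign-flip permutation p = 1). These folds correspond to about 3.48, 3 and 3 overlapping reads at the median member peak, so most peaks rest on very few molecules.

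In the base calls, the regions of the members had a lower 5mC share and a higher unmodified share than those of other genes in all 3 replicates, and a 5hmC share that was similar in replicates 1 and 2. Out of 391, 702 and 730 member calls in the 3 replicates, 30.9%, 32.3% and 25.6% were 5hmC (95% exact Clopper-Pearson intervals 26.4 to 35.8%, 28.9 to 35.9% and 22.5 to 28.9%). Regions of other protein-coding genes had 30.5%, 32.3% and 31.7%. Members minus others, the difference was 0.423, −0.0106 and −6.11 percentage points, so that replicate 3 alone lay clearly below the other genes.

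5mC made up 23.3% (19.2 to 27.8%), 29.9% (26.5 to 33.5%) and 23.2% (20.1 to 26.4%) of member calls, and 40.8%, 40.0% and 41.2% of the calls in other genes. Unmodified C made up 45.8% (40.8 to 50.9%), 37.7% (34.1 to 41.5%) and 51.2% (47.5 to 54.9%), and 28.6%, 27.7% and 27.1% in other genes. The members and the others did not overlap in either state. Reads carry several CpGs, so calls are not independent molecules and these intervals cover counting error only.

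The mean difference, members minus others, was −1.90 ± 3.65 percentage points for 5hmC (p = 0.75), −15.2 ± 4.48 for 5mC (p = 0.25) and 17.1 ± 7.05 for unmodified C (p = 0.25; SD, n = 3, exact two-sided sign-flip permutation tests). The last 2 had the same sign in 3 of 3 replicates, and 0.25 is the smallest p that 3 replicates allow. Shank3 and Grm4 supplied 45% of the member calls. Without Shank3 the differences were −14.7 ± 4.38 points for 5mC and 16.8 ± 8.07 for unmodified C. Among calls from replicates that had no peak in the region concerned, they were −15.8 ± 0.730 and 13.1 ± 6.05.

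The differences were also taken by CpG density, without a test of a trend. In regions with under 2 CpGs per 100 bp the 5mC difference was −8.95 ± 8.78 points, in those with 2 to 4 it was −13.6 ± 3.83 and in those with 4 or more −28.1 ± 9.85, negative in 3 of 3 replicates in each class. Replicate 1 did not follow the order of the means, with −18.7, −10.6 and −32.8 points. The class of 4 or more held 316 member calls, all from Grm4, Shank3 and Dlgap3. Most were from Grm4, in regions of 158, 32 and 31 calls, beside 57 in Shank3 and 38 in Dlgap3. Its values thus describe few genes and not the member set. The 5hmC difference in the same classes was 1.03 ± 7.87, −1.84 ± 4.57 and −7.14 ± 2.42. Counted by gene, the median over 12 members with at least 20 calls was 30.7% 5hmC, 24.2% 5mC and 42.0% unmodified C, and over 1925 other genes 32.1%, 40.0% and 25.3%.

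**Figure D3:**
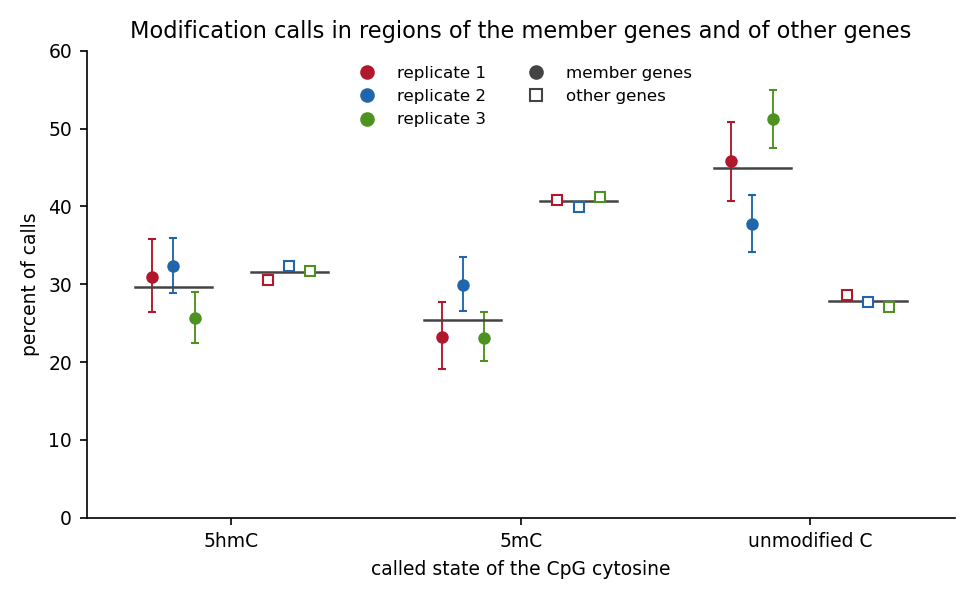
Points give the percent of CpG calls that were 5hmC, 5mC or unmodified C in each replicate, filled for regions of the members and open for regions of other protein-coding genes, with 95% exact Clopper-Pearson intervals and a bar at the mean of the 3 replicates. The 2 sets overlap for 5hmC, whereas the members lie lower for 5mC (23.2 to 29.9% beside 40.0 to 41.2%) and higher for unmodified C.

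Families with enough calls could be set side by side. The scaffold genes had 35.4%, 27.9% and 26.7% 5hmC over 268, 369 and 446 calls in replicates 1, 2 and 3 (intervals 29.7 to 41.5%, 23.4 to 32.8% and 22.6 to 31.0%). The NMDA receptor genes had 22%, 39.4% and 44.9% over 59, 142 and 49 calls (12.3 to 34.7%, 31.3 to 48.0% and 30.7 to 59.8%). The order of the 2 families was thus not the same in replicate 1 as in replicates 2 and 3. The metabotropic genes, almost all of whose calls came from Grm4, averaged 24.6 ± 9.02% 5hmC, 18.7 ± 8.43% 5mC and 56.8 ± 17.2% unmodified C (SD, n = 3).

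By gene, 7 members had at least 20 calls in at least 2 replicates. Grm4 had 19.4%, 35.5% and 19.4% 5hmC over 62, 138 and 196 calls (10.4 to 31.4%, 27.6 to 44.1% and 14.1 to 25.6%). Its 5mC share averaged 18.3 ± 7.87% and its unmodified share 56.9 ± 16.9% (SD, n = 3). Replicate 2 stood apart, with 37.7% unmodified C beside 69.4% and 63.8%.

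Shank3 had 35.7%, 24.2% and 27.5% 5hmC over 115, 128 and 182 calls (26.9 to 45.1%, 17.1 to 32.6% and 21.1 to 34.6%), with overlapping intervals. Its 5mC share was 23.5%, 28.1% and 19.2% (16.1 to 32.3%, 20.5 to 36.8% and 13.8 to 25.7%), each below the other genes of the same replicate. Dlgap3 averaged 25.5 ± 8.94% 5hmC, 19.3 ± 13.8% 5mC and 55.2 ± 19.9% unmodified C. Dlgap1 averaged 31.9 ± 6.55%, 22 ± 5.53% and 46.1 ± 7.13% (SD, n = 3 for both genes).

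Dlgap4 was the one of the 6 genes with calls in all replicates whose mean 5mC share, 39.8 ± 8.1%, came close to that of other genes, with 34.1 ± 12.9% 5hmC and 26.2 ± 5.37% unmodified C (SD, n = 3). Grin2c had 12.5%, 45.5% and 46.2% 5hmC over 40, 66 and 26 calls (4.19 to 26.8%, 33.1 to 58.2% and 26.6 to 66.6%). All its peaks came from replicates 2 and 3, and replicate 1 stood below both. Dlg2, 75 of whose 78 calls lay in the tandem repeat of its shared region, had 25% (11.5 to 43.4%) and 10.9% 5hmC (3.62 to 23.6%) over 32 and 46 calls in replicates 2 and 3. Differences between these genes were not tested.

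**Figure D4:**
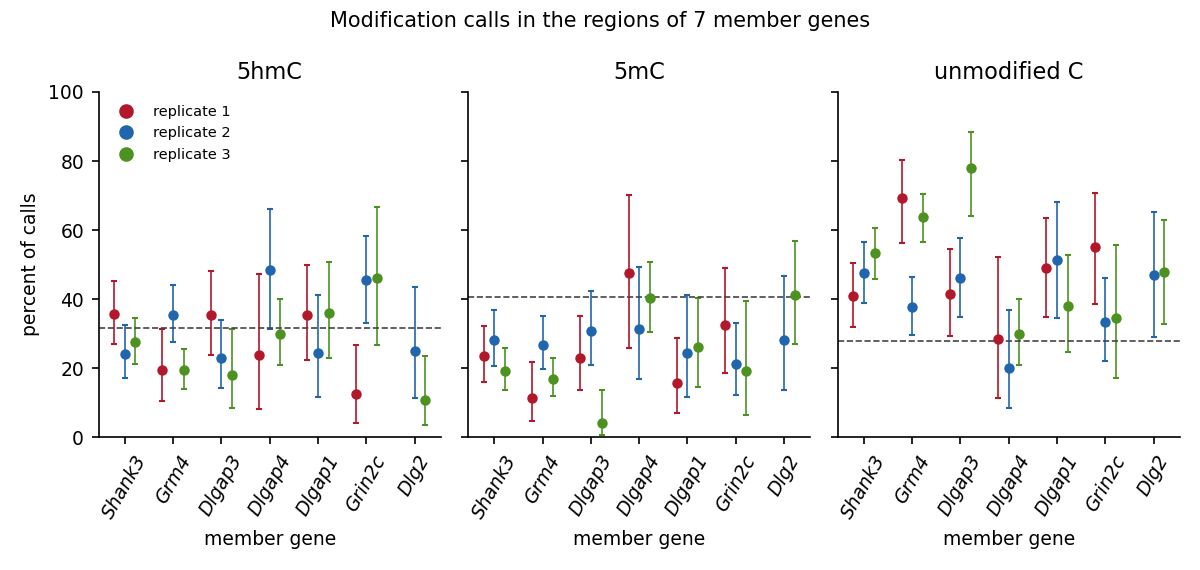
Panels give the percent of CpG calls that were 5hmC, 5mC and unmodified C for each of 7 members and each replicate, with 95% exact Clopper-Pearson intervals and, dashed, the mean of other protein-coding genes (31.5%, 40.7% and 27.8%). The 5mC points lie under the dashed line except 1 of Dlgap4 (47.6%) and 1 of Dlg2 (41.3%), and the Grin2c 5hmC points of replicates 2 and 3 lie above that of replicate 1.

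Base calls covered 31.5%, 54.6% and 45.2% of the 993 CpGs in the member regions in replicates 1, 2 and 3. Of the 95 regions, 91 had a call in at least 1 replicate and 81 had at least 1 5hmC call. The same counts were not made for regions of other protein-coding genes. Their calls averaged 31.5% 5hmC over the replicates, beside 29.6% in the members. Another annotated gene, none of them protein-coding, overlapped 6 of the 95 regions, in Dlgap1, Dlgap3, Dlgap4, Dlg1 and Gria2.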

How the data were processed

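hMeDIP-seq of mouse cerebellum was analysed in 3 replicates. The authors base-called reads with Dorado, aligned them to mm39 with minimap2 and SAMtools, and called narrow peaks on each replicate against untreated DNA with MACS2 at q of 0.05, removing blacklisted peaks. The deposited peak files give a display score, fold enrichment (a linear ratio) and −log10 of the p-value and of the q-value per peak. The deposited pileups, made by the authors with modkit, give counts of calls per CpG and a percent modified, of which the counts were used. The methods state that repeats were masked, and whether this held for the Dlg2 repeat was not tested. Every deposited base-call site lay on a CpG of GRCm39.

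Peaks were merged where they shared at least 1 bp and given to GENCODE M39 protein-coding genes, and to their exons and introns, by midpoint. Calls were summed per replicate, and differences over replicates were tested by exact sign flips. Scripts were tested on simulated data. Members, gene lists, groupings and alternatives were chosen with earlier results of these data known. Genes were named if among the 10 members with most regions (ties by density), if they held a region of at least 2 replicates, if among the 5 densest members with at least 2 regions, or if they held none. Regions were named if of at least 2 replicates or among the 5 with highest fold. Others were named after their values were seen, to complete families. Of the 5 windows chosen for printing, 2 are printed, 1 of Shank3 with 5 CpGs was left out and some items are not reported here; 1 in untranslated sequence was passed over. Python 3.11.15, pandas 2.3.3, scipy 1.17.1 and pysam 0.24.0 were used.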

Additional observations from a re-analysis of the deposited data

How the results depend on the processing

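The lower 5mC and higher unmodified C shares of the member regions kept their direction under all 17 alternatives run, which ranged from −23.5 to −1.05 and from 1.68 to 22.3 percentage points. Both weakest values came from sites with at least 5 calls, where the members had 16 calls, all in replicate 3. The 5hmC difference, −1.90 points, changed sign to 0.314 with fold enrichment of at least 4, to 1.13 at sites with at least 3 calls, to 1.71 at sites in a replicate's own peaks and to 1.03 in regions with under 2 CpGs per 100 bp, a setting added after seeing the data. Leaving out each replicate gave −3.20 to −0.0286 points for 5hmC.

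The members with a region, 28, numbered 10 at a fold of at least 4 and 14 to 28 when each replicate was left out, the 14 without replicate 2. The share of all protein-coding genes with a region was not counted under these settings, so these counts cannot be set against it. Density was lower in the members, at −0.35 on the log2 scale, under 10 of 12 alternatives. Among these, replicates differed in sign at a fold of at least 4 (−0.196 ± 0.332, SD, n = 3) and against other genes of at least 100 kb (−0.181 ± 0.375, SD, n = 3). Per CpG the value was −0.01, where replicates also differed in sign. It was higher, at 2.21, among genes under 100 kb, a setting chosen after seeing the data in which few genes held most regions. The fold difference, −0.163, became 3e-05 without replicate 1 and lay between −0.245 and that value when each replicate was left out. The intron share was 76.5 to 90.2%. At a fold of at least 4, Dlgap1 had 4 of its 15 regions, Grm4 5 of 12, Shank3 4 of 8, Dlgap3 2 of 8, Dlgap4 1 of 7, Grin2c 3 of 5 and Dlg1 1 of 4, and Grin2a, Grin2b and Grik5 had none. Without replicate 2 these 10 had 10, 7, 5, 3, 5, 2, 1, 1, 2 and 0, and without replicate 3 they had 8, 8, 6, 7, 3, 4, 3, 5, 1 and 2. Depth of 1 to 6 calls per site limits every value for a single CpG, and with 3 replicates no sign-flip test can go below 0.25.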
